A study of Mus musculus with 9 samples.

Results

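The glycolysis genes described here are 10 genes of glucose uptake and breakdown, taken by name from the genes counted in RNA recovered with RIG-I. They are Slc2a1, Hk2, Gpi1, Aldoa, Tpi1, Gapdh, Pgk1, Eno1, Pkm and Ldha, 10 of the 22396 genes in the counts table, each matched through its Ensembl identifier (Gapdh is ENSMUSG00000057666). All 10 passed the filter on low counts, which left 12744 genes for testing. The cells were B16F10, a mouse melanoma line, carrying FLAG-tagged RIG-I, a sensor of RNA in the cytoplasm, and 1 of 3 shRNAs. The control shRNA (shCtr) was compared with 2 shRNAs against Osgep (shOSGEP#1 and shOSGEP#2), the gene of an enzyme that modifies tRNAs reading codons that start with A. RNA was pulled down with the FLAG tag, depleted of ribosomal RNA and sequenced, with 3 libraries per group and 9 in all.

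Glycolysis turns glucose into pyruvate in the cytosol, and lactate dehydrogenase can then reduce pyruvate to lactate. Glucose enters through transporters, is trapped by hexokinase, is split by aldolase into a pair of triose phosphates, and yields ATP at the steps of phosphoglycerate kinase and pyruvate kinase. Many tumour cells, melanoma cells included, use this route heavily even when oxygen is present.

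The libraries differed in depth. Replicate 2 of shOSGEP#2 had 568995 counts, and the other 8 libraries had 14914731 (shOSGEP#2 replicate 3) to 50224299 (shOSGEP#1 replicate 2). That shallow library is shown apart: 3 counts, taken as the floor of detection, equal 5.27 CPM there (CPM is a gene's count scaled by its library total) and at most 0.201 CPM in the other libraries. Means, standard deviations and fold changes use the other 8 libraries unless all 9 are named. All values are relative to the other RNA that came down with RIG-I. No pulldown without the tag is among the 9 libraries, so binding to RIG-I and carry-over of mRNA cannot be told apart. Lysate RNA was not analysed here, so a change in the amount of an mRNA in the cell and a change in its recovery cannot be told apart, nor can fewer cells of a kind and less RNA per cell.

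Osgep itself, the target of both shRNAs, stood at 19.1, 19.9 and 15.5 CPM in shCtr. It reached 3.76, 1.16 and 1.53 CPM in shOSGEP#1, and 0.0786 and 2.88 CPM in shOSGEP#2 replicates 1 and 3, with 0 counts in the shallow library. All shOSGEP libraries lay below all shCtr libraries, as the labels say. The log2 fold changes against shCtr were −3.10 (standard error 0.73, edgeR adjusted p = 0.0128) and −3.84 (standard error 0.93, edgeR adjusted p = 0.0150), past 0.05 and not past the threshold of 0.01 used here. Ddx58, which encodes RIG-I, had 180, 184 and 278 CPM in shCtr, 232, 216 and 327 in shOSGEP#1, and 402 and 429 in the 2 deep shOSGEP#2 libraries, where its log2 fold change against shCtr was 0.86 (standard error 0.23, edgeR adjusted p = 0.0239). In the shallow library Ddx58 had 0 counts, although 5.27 CPM is the floor there. The counts do not separate the tagged construct from the cell's own gene.

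Summed, the 10 glycolysis genes made up 2.35%, 2.26% and 1.55% of all counts in the shCtr libraries, in the order of their replicate numbers. They held 1.59%, 1.51% and 0.983% in shOSGEP#1, and 1.55% and 1.18% in shOSGEP#2 replicates 1 and 3. The highest share of either shOSGEP group thus lay at the level of the lowest shCtr library, shCtr replicate 3, and the groups overlapped. The mean for shCtr was 2.06% (SD 0.437 over 3 libraries), for shOSGEP#1 1.36% (SD 0.329 over 3) and for shOSGEP#2 1.37% (SD 0.265 over 2). With each library's 10 top genes and mitochondrial genes left out of the total, the means were 2.18%, 1.45% and 1.45%. With the same 10 genes left out of sum and total in every library, a choice made after seeing the data, they were 1.12%, 0.697% and 0.651%. Leaving each library's own 10 top genes out of the sum too gave 0.746%, 0.763% and 0.737%, but it dropped 4, 3 and 2 members in shCtr and 2, 2 and 1 in shOSGEP#1, so these means sum different genes. The shallow library had 0.718% (95% Wilson interval 0.696% to 0.740%), the widest interval of the 9, and this interval covers counting error only. Replicate 3 was the lowest library for 10 of the 10 genes in shCtr, for 9 in shOSGEP#1 and for 9 in shOSGEP#2, where only 2 libraries are compared. The share of all tested genes lowest in replicate 3 is not given here, and what sets replicate 3 apart was not tested.

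**Figure D1:**
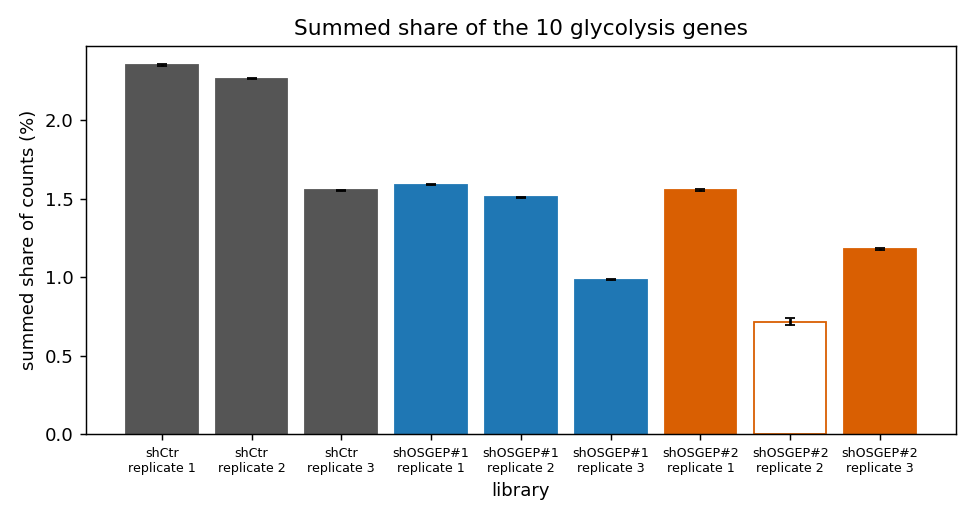
Bars give the summed counts of the 10 glycolysis genes as a percent of all counts in each of the 9 libraries, with 95% Wilson intervals, and the open bar is the shallow library. The shCtr libraries stand at 2.35%, 2.26% and 1.55%, the last level with the highest shOSGEP libraries.

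Per kilobase of the longest annotated transcript, Gapdh was the most abundant of the 10 in shCtr, with 4630.2 ± 1100.4 CPM per kilobase (SD, n = 3). Aldoa (2124 ± 544) and Eno1 (1687 ± 273) came next in that unit, and their ranges over the 3 libraries overlapped. Pkm (1109 ± 204), Pgk1 (976 ± 208) and Tpi1 (811 ± 201) followed, each overlapping its neighbour. Ldha stood at 381 ± 64 and Gpi1 at 223 ± 49.4 CPM per kilobase. Lowest were the genes that start the pathway, Hk2 at 23.1 ± 3.98 and Slc2a1 at 9.97 ± 2.56, and from Ldha downward no neighbours overlapped. With the median transcript length in place of the longest, 7 of the 10 ranks changed, Eno1 standing above Aldoa and Slc2a1 above Hk2, while Gapdh stayed first.

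Slc2a1 encodes the glucose transporter GLUT1. Its mRNA had 34.7, 39.5 and 23.3 CPM in shCtr, 28.2, 39.9 and 48.5 in shOSGEP#1, and 43.0 and 36.0 in shOSGEP#2 replicates 1 and 3. The groups overlapped, with the lowest value in shCtr replicate 3 and the highest in shOSGEP#1 replicate 3. The log2 fold changes against shCtr were 0.25 (standard error 0.24, edgeR adjusted p = 0.508) and 0.19 (standard error 0.27, edgeR adjusted p = 0.642). In the shallow library Slc2a1 had 0 counts, and the floor of 5.27 CPM there covers counting error only. Ddx58 and G6pdx also had 0 counts there, and G6pdx had 253 CPM in each deep shOSGEP#2 library. A count of 0 there may thus not bound the level of a gene, and the reason was not tested. With all 9 libraries the value of Slc2a1 in shOSGEP#2 turned to −0.34 (edgeR adjusted p = 0.912; 0.462 to 0.992 over all alternatives). The value for shOSGEP#1 also turned, to −0.02, with limma voom and sample quality weights on all 9 libraries.

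Hk2 encodes the hexokinase that phosphorylates glucose in many tumour cells, and it was the gene on which the shRNAs differed most among the 10. Its mRNA had 124, 151 and 108 CPM in shCtr replicates 1, 2 and 3. In shOSGEP#1 it had 85.5, 71.9 and 60.6 CPM, and in shOSGEP#2 221 and 262 CPM, with 204 CPM in the shallow library. Every shOSGEP#1 library lay below every shCtr library, and every shOSGEP#2 library, the shallow one included, lay above them. Hk2 fell in shOSGEP#1, with a log2 fold change of −0.82 (standard error 0.17, edgeR adjusted p = 0.00700). Set beside shCtr, shOSGEP#2 had a log2 fold change of 0.83 (standard error 0.19, edgeR adjusted p = 0.0108), which missed the threshold of 0.01. Tested directly, the difference between the shRNAs was 1.65 (shOSGEP#2 against shOSGEP#1, standard error 0.19, edgeR adjusted p = 0.000253), a ratio of 3.14. That call held without each of the 8 libraries in turn, at edgeR adjusted p of at most 0.00234, and was lost with all 9 libraries (log2 fold change 1.44, edgeR adjusted p = 0.200; 8.15e-14 to 0.560 over all alternatives).

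Gpi1 encodes glucose-6-phosphate isomerase, which makes fructose-6-phosphate. Its mRNA had 776, 663 and 493 CPM in shCtr, 671, 601 and 509 in shOSGEP#1, and 393 and 286 in shOSGEP#2 replicates 1 and 3. The shOSGEP#1 libraries lay within the shCtr range, whereas both deep shOSGEP#2 libraries lay below every other deep library. The log2 fold change was −0.13 in shOSGEP#1 (standard error 0.20, edgeR adjusted p = 0.697) and −1.01 in shOSGEP#2 (standard error 0.23, edgeR adjusted p = 0.0110). Between the shRNAs it was −0.88 (standard error 0.23, edgeR adjusted p = 0.0189). None of these passed 0.01. Without shCtr replicate 1 the value for shOSGEP#1 turned to 0.02.

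Aldoa encodes aldolase A, the enzyme that splits fructose-1,6-bisphosphate. Its mRNA had 3899.9, 3641 and 2329 CPM in shCtr replicates 1, 2 and 3. It had 1895, 1673 and 1422 CPM in shOSGEP#1, and 1971 and 1571 CPM in shOSGEP#2 replicates 1 and 3. All 5 of these libraries lay below the lowest shCtr library, and the shallow library, at 605 CPM, lay lower still. Aldoa fell in shOSGEP#1, with a log2 fold change of −0.996 (standard error 0.21, edgeR adjusted p = 0.00670). In shOSGEP#2 it was −0.98 (standard error 0.24, edgeR adjusted p = 0.0137), past 0.05 and not past 0.01.

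The calls of Hk2 and Aldoa in shOSGEP#1 each depended on single libraries. Hk2 had an edgeR adjusted p of 0.0222 without shCtr replicate 1, 0.0429 without shCtr replicate 2, 0.0306 without shOSGEP#1 replicate 2 and 0.0229 without shOSGEP#1 replicate 3. For Aldoa it was 0.0298 and 0.0355 without shCtr replicates 1 and 2, and 0.0112, 0.0283 and 0.0288 without shOSGEP#1 replicates 1, 2 and 3. Over all alternatives the adjusted p ran from 0.000126 to 1.00 for Hk2 and from 2.60e-05 to 1.00 for Aldoa, the highest being those with all 9 libraries, and the sign held in each.

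Tpi1 encodes triosephosphate isomerase, which interconverts the products of aldolase. Its mRNA had 1479.5, 1498 and 931 CPM in shCtr, 859.5, 798 and 501 in shOSGEP#1, and 883 and 606 in shOSGEP#2 replicates 1 and 3. Every deep shOSGEP library lay below every shCtr library, by a narrow margin from shCtr replicate 3. The log2 fold changes were −0.87 (standard error 0.25, edgeR adjusted p = 0.0310) and −0.90 (standard error 0.29, edgeR adjusted p = 0.0472). Gapdh encodes the dehydrogenase of the next step and is widely used as a reference gene. It had 7799, 7110.1 and 4815 CPM in shCtr, 5450.4, 5226 and 2775 in shOSGEP#1, and 6194 and 4882 in shOSGEP#2 replicates 1 and 3, and the groups overlapped. Its log2 fold changes were −0.56 (standard error 0.26, edgeR adjusted p = 0.143) and −0.34 (standard error 0.29, edgeR adjusted p = 0.432).

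Pgk1 encodes phosphoglycerate kinase, a step that makes ATP. Its mRNA had 1852, 2119.9 and 1370.0 CPM in shCtr, 1257, 1209 and 789.6 in shOSGEP#1, and 990.2 and 863 in shOSGEP#2 replicates 1 and 3. The groups did not overlap in either comparison with shCtr. The log2 fold change was −0.73 in shOSGEP#1 (standard error 0.21, edgeR adjusted p = 0.0311) and −1.03 in shOSGEP#2 (standard error 0.24, edgeR adjusted p = 0.0124). Eno1, which encodes enolase, had 3714, 3763 and 2780.3 CPM in shCtr, 2941, 2949 and 1803 in shOSGEP#1, and 2401 and 1482 in shOSGEP#2 replicates 1 and 3. Here shOSGEP#1 overlapped shCtr and shOSGEP#2 did not. The log2 fold changes were −0.43 (standard error 0.24, edgeR adjusted p = 0.229) and −0.90 (standard error 0.27, edgeR adjusted p = 0.0374). Eno1b, a near-identical copy of Eno1, had 13.9 to 30.9 CPM in the 8 libraries as the authors' tools divided the reads, and that division was not tested.

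Pkm encodes the muscle-type pyruvate kinases, which make pyruvate and ATP. Its mRNA had 3069.5, 2887 and 2132 CPM in shCtr, 2049, 1854 and 1499 in shOSGEP#1, and 1845 and 1408 in shOSGEP#2 replicates 1 and 3. No deep shOSGEP library reached the lowest shCtr library. The log2 fold changes were −0.59 (standard error 0.19, edgeR adjusted p = 0.0438) and −0.82 (standard error 0.21, edgeR adjusted p = 0.0209). Ldha, which encodes the lactate dehydrogenase A subunit, had 748, 769 and 558 CPM in shCtr, 652, 658 and 427 in shOSGEP#1, and 602 and 401 in shOSGEP#2 replicates 1 and 3. Its groups overlapped, with log2 fold changes of −0.27 (standard error 0.22, edgeR adjusted p = 0.432) and −0.55 (standard error 0.25, edgeR adjusted p = 0.143).

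The shallow library, shOSGEP#2 replicate 2, is shown apart here for all 10 genes. It had 0 CPM for Slc2a1, 204 for Hk2, 236 for Gpi1, 605 for Aldoa and 288 for Tpi1. For Gapdh it had 1736 CPM, for Pgk1 460.5 and for Eno1 1063, and these 8 genes all lay below both deep shOSGEP#2 libraries. Pkm (1947 CPM) and Ldha (641 CPM) lay above both of them instead. Pkm was under the lowest shCtr library there, and Ldha lay above shCtr replicate 3.

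**Figure D2:**
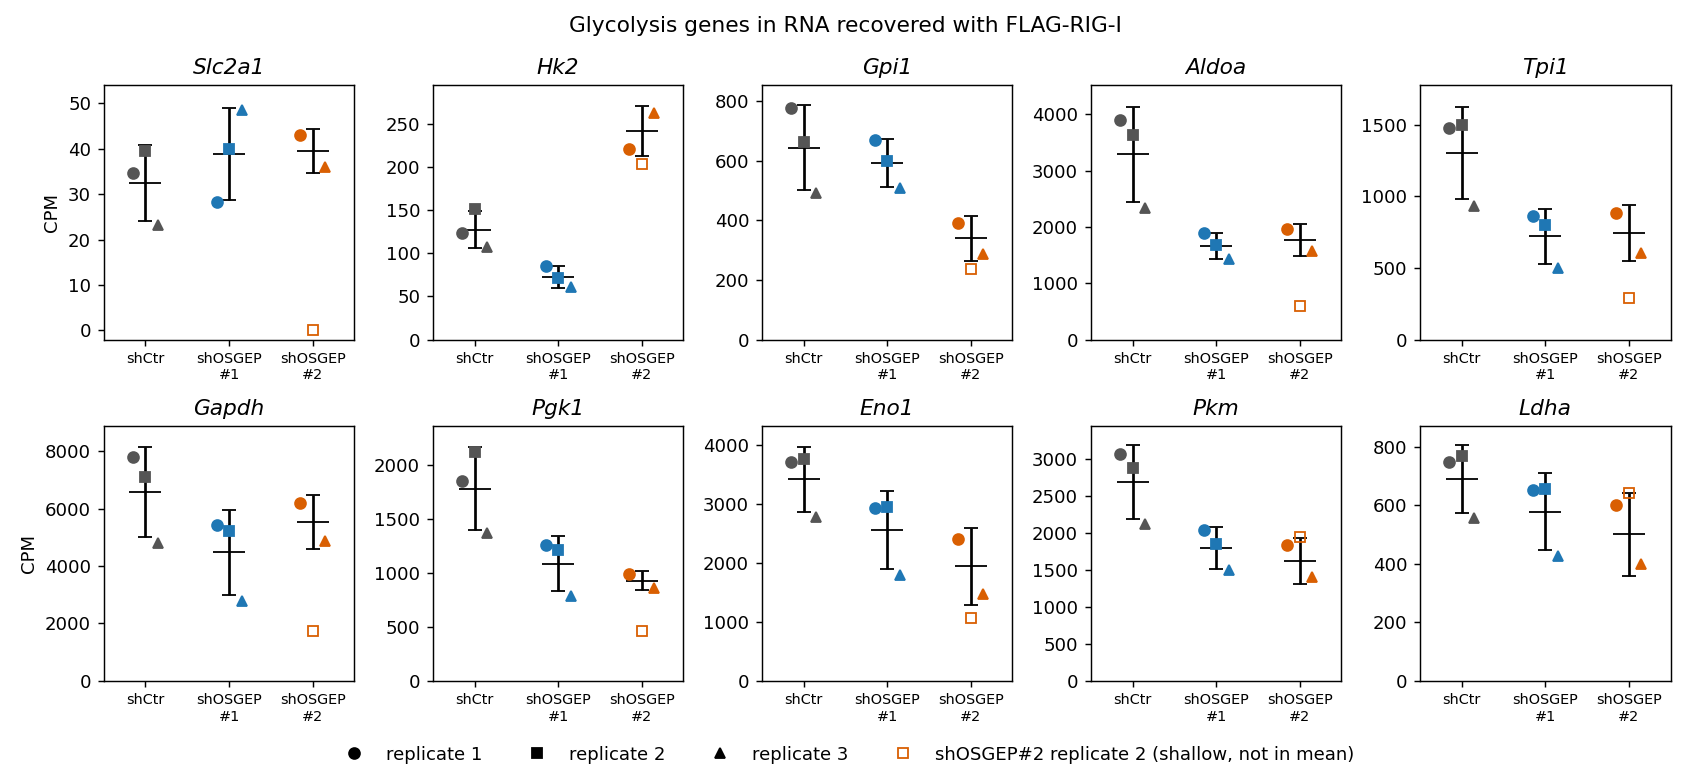
Each panel gives the CPM of a gene in every library (filled symbols, shape by replicate number), with the mean and SD of each group (n = 3, 3 and 2) as bars and the shallow shOSGEP#2 replicate 2 as an open symbol outside the mean. Hk2 is lower than shCtr in shOSGEP#1 (60.6 to 85.5 CPM) and higher in shOSGEP#2 (221 and 262 CPM), and replicate 3 is the lowest shCtr point in all 10 panels.

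Counted over the list at an adjusted p under 0.01, 2 of the 10 genes were lower in shOSGEP#1 and 0 higher, where 4.67% and 5% of all 12744 tested genes were called in these directions. In shOSGEP#2, 0 were lower and 0 higher by edgeR with no term for the replicate number, against 3.89% and 5.66% of all genes. Of the 10 genes, 7 had an unadjusted p under 0.05 in that comparison, as did 35.6% of all genes. With the replicate number as a block, edgeR on 8 libraries called 5 of the 10 in shOSGEP#1, against 10.8% of all genes. In shOSGEP#2 this block gave 7 of the 10, against 9.71% of all genes. Pairing by that number was weak, and with all 9 libraries the block gave 0 calls. Other settings also gave other counts for shOSGEP#2. By edgeR, 4 of the 10 were called without a filter on low counts, against 10.2% of all genes. With at least 10 counts in every library, 2 were, against 12.2%. DESeq2, the tool of the paper's methods, called 7 of the 10 against 15.3% of its 15691 genes. Limma voom with sample quality weights on all 9 libraries called 6 against 8.2% of 12337 genes. That fit changes tool, weights and libraries together. In shOSGEP#1, DESeq2 called 4 of the 10, against 15.4% of its genes. Between the shRNAs 1 gene, Hk2, was called higher in shOSGEP#2, against 6.23% of all genes.

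These counts changed with single libraries left out. In shOSGEP#1 the 2 calls became 0 without shCtr replicate 1 or 2 or shOSGEP#1 replicate 2 or 3, and 1 without shOSGEP#1 replicate 1. Of all genes, 3.38%, 2.52%, 3.4%, 5.72% and 8.57% were called without these libraries, in that order. In shOSGEP#2 the edgeR count of 0 became 3 without shCtr replicate 3 (Aldoa, Gpi1 and Pgk1), 2 without shOSGEP#1 replicate 3 (Hk2 and Pgk1) and 1 without shOSGEP#1 replicate 1 (Hk2), where 6.08%, 11.6% and 8.25% of all genes were called.

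At an adjusted p under 0.05, the edgeR counts were 5 lower and 0 higher in shOSGEP#1, against 10.5% and 11.5% of all tested genes. In shOSGEP#2 they were 6 lower and 1 higher, against 9.64% and 11.3%. Without shCtr replicate 1 or 2, or shOSGEP#1 replicate 2 or 3, the total for shOSGEP#1 was 2, against 12.7%, 10.7%, 13.6% and 15.9% of all genes in either direction. For shOSGEP#2 the edgeR total was 4 without shCtr replicate 1, 3 without shCtr replicate 2, 8 without shOSGEP#2 replicate 1 and 0 without shOSGEP#2 replicate 3, against 13.6%, 12.5%, 25.2% and 12.4% of all genes. In the last of these fits 5 of the 10 genes and 27.2% of all genes had an unadjusted p under 0.05. The group ranges were apart for 5 genes lower and 0 higher in shOSGEP#1, against 22.2% and 23.1% of all genes, and for 6 lower and 1 higher in shOSGEP#2, against 23.6% and 28.7%. The median log2 fold change of the 10 genes was −0.58 in shOSGEP#1, beside 0.00211 over all tested genes, and −0.86 in shOSGEP#2, beside −0.06. Both comparisons use the same shCtr libraries, and shCtr replicates 1 and 2 were high for most of the 10 genes, so their values are not independent of each other.

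With all 9 libraries in the edgeR fit, 0 of the 10 genes were called in any of the 3 comparisons, where 0% of 12337 genes were called in each. Counting unadjusted p under 0.05 from edgeR gave 1, 6 and 2 of the 10 genes, and 620, 1240 and 1325 of all genes, in shOSGEP#1 against shCtr, shOSGEP#2 against shCtr and shOSGEP#2 against shOSGEP#1. The common dispersion, edgeR's estimate of the spread between replicates, was 0.420 with all 9 libraries and 0.0692 with 8. The shallow library also moved the median over all genes in shOSGEP#2 to −0.37. The calls named here and below are those of the 8 libraries.

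**Figure D3:**
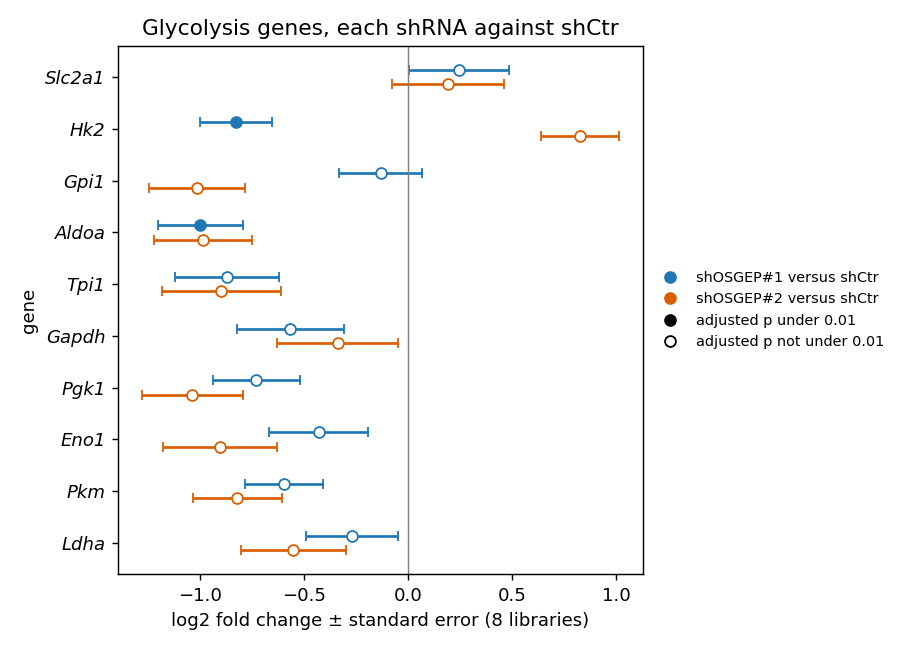
Points give the log2 fold change of each gene against shCtr in the fit of 8 libraries, with standard errors as bars, filled where the adjusted p is under 0.01. Aldoa (−0.996) and Hk2 (−0.82) are filled for shOSGEP#1, and Hk2 lies on opposite sides of 0 for the 2 shRNAs.

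Other genes of the pathway, its isozymes and lactate export numbered 30, of which 21 were tested. In shOSGEP#1, 2 were called higher and 3 lower, where 5% and 4.67% of all tested genes were, with a median log2 fold change of −0.35. In shOSGEP#2, 1 was higher and 3 lower, where 5.66% and 3.89% of all tested genes were, with a median of −0.42. Pgam1, the phosphoglycerate mutase between Pgk1 and Eno1 and the gene of this list with the highest mean CPM over the 8 libraries, had 1284, 1467 and 1406 CPM in shCtr, 603, 494 and 441 in shOSGEP#1, and 962 and 1137 in the deep shOSGEP#2 libraries. It fell in shOSGEP#1 by 1.45 on the log2 scale (standard error 0.16, edgeR adjusted p = 0.000284), with no overlap of the groups. Pfkl, a phosphofructokinase subunit, fell there by 2.06 (standard error 0.28, edgeR adjusted p = 0.000901), from 228, 232 and 118 CPM in shCtr to 64.0, 41.8 and 33.8. The glucose transporter gene Slc2a3 rose by a log2 fold change of 1.14 in shOSGEP#1 (standard error 0.21, edgeR adjusted p = 0.00384). In shOSGEP#2, the lactate transporter gene Slc16a1 fell by 2.26 (standard error 0.37, edgeR adjusted p = 0.00185), from 43.8, 49.8 and 49.2 CPM to 6.09 and 15.6. Ldhb, the other widely expressed lactate dehydrogenase subunit, fell by 1.18 there (standard error 0.24, edgeR adjusted p = 0.00595), and the ADP-dependent glucokinase gene Adpgk rose by 1.75 (standard error 0.19, edgeR adjusted p = 0.000225). The remaining called genes, named after their values were seen, were Hkdc1 (log2 fold change 3.33) and Eno2 (−1.52) in shOSGEP#1 and Aldoc (−1.44) in shOSGEP#2. Hkdc1 was low throughout, with means of 0.423 CPM in shCtr and 4.33 CPM in shOSGEP#1. Eno2 had means of 15.8 CPM in shCtr, 5.58 in shOSGEP#1 and 37.0 in the deep shOSGEP#2 libraries, where it was not called against shCtr. In the shallow library Ldhb had 144 CPM, within its shCtr range of 128 to 149 CPM, while Adpgk had 719 CPM and Slc16a1 and Aldoc had 0 counts. The calls of Pgam1, Pfkl, Slc16a1 and Adpgk held without each of the 8 libraries in turn. The others were lost without some of them, given with the edgeR adjusted p. That of Slc2a3 was lost without shCtr replicates 1, 2 and 3 (0.0225, 0.0151 and 0.0124) or shOSGEP#1 replicates 2 and 3 (0.0216 and 0.0117), as edgeR adjusted p, and that of Ldhb without shCtr replicates 1, 2 and 3 (0.0225, 0.0176 and 0.0159), shOSGEP#1 replicate 2 (0.0113) or shOSGEP#2 replicates 1 and 3 (0.0368 and 0.0171). Hkdc1 lost it without shCtr replicates 1, 2 and 3 (0.0316, 0.0306 and 0.0182) or shOSGEP#1 replicates 1, 2 and 3 (0.0180, 0.0296 and 0.0177). Eno2 did without shCtr replicates 1 and 2 (0.0444 and 0.0433) or shOSGEP#1 replicates 1, 2 and 3 (0.0224, 0.0428 and 0.0313), and Aldoc without shCtr replicates 1 and 2 (0.0254 and 0.0246), shOSGEP#1 replicate 2 (0.0116) or shOSGEP#2 replicates 1 and 3 (0.0355 and 0.0205).

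Downstream, 14 genes of pyruvate entry into mitochondria were tested. In shOSGEP#1, 1 was called higher (Pdpr, log2 fold change 0.90) and 2 lower, the pyruvate carrier gene Mpc1 (−1.15) and the pyruvate dehydrogenase kinase gene Pdk1 (−1.66). In shOSGEP#2, 0 were called higher and 1 lower (Pdp2, −1.54) by edgeR. The shares of all tested genes called higher and lower were 5% and 4.67% in shOSGEP#1 and 5.66% and 3.89% in shOSGEP#2, for this list and the next. Pdha1, with the highest mean CPM of the list over the 8 libraries but below Dld in shOSGEP#1, had log2 fold changes of −0.18 and −0.29, with edgeR adjusted p of 0.428 and 0.223. Of 12 tested genes of the pentose phosphate route and gluconeogenesis, G6pc3 (1.17) was called higher and G6pdx (−0.90) lower in shOSGEP#1. In shOSGEP#2, Pck2 (1.47) was called higher, and Pgd (−1.63) and G6pdx (−1.11), which catalyse the oxidative steps of the pentose phosphate route, were called lower. In the shallow library Pdp2 and G6pdx had 0 counts, Pgd had 163 CPM and Pck2 947 CPM. Mpc1 and Pdp2 were called without each library in turn, and the others were not. In edgeR adjusted p, Pdk1 lost its call without shCtr replicates 1 and 2 (0.0285 and 0.0380) or shOSGEP#1 replicates 1, 2 and 3 (0.0189, 0.0339 and 0.0300), and Pdpr without shCtr replicates 1, 2 and 3 (0.0214, 0.0140 and 0.0145) or shOSGEP#1 replicates 2 and 3 (0.0174 and 0.0101). G6pdx lost it in shOSGEP#1 without shCtr replicates 1 and 2 (0.0462 and 0.0487), shOSGEP#1 replicates 1, 2 and 3 (0.0212, 0.0459 and 0.0247) or shOSGEP#2 replicates 1 and 3 (0.0125 and 0.0121), and in shOSGEP#2 without shCtr replicates 1 and 2 (0.0281 and 0.0291), shOSGEP#1 replicates 1 and 2 (0.0114 and 0.0119) or shOSGEP#2 replicates 1 and 3 (0.0269 and 0.0501). For G6pc3 this was without shCtr replicates 1, 2 and 3 (0.0207, 0.0233 and 0.0155) or shOSGEP#1 replicates 2 and 3 (0.0208 and 0.0154), for Pgd without shCtr replicates 1 and 2 (0.0111 and 0.0133) or shOSGEP#2 replicates 1 and 3 (0.0205 and 0.0216), and for Pck2 without shCtr replicates 1 and 3 (0.0115 and 0.0102) or shOSGEP#2 replicates 1 and 3 (0.0101 and 0.0192). The medians were −0.02 and −0.20 for pyruvate entry and 0.02 and 0.01 for the other list, in shOSGEP#1 and shOSGEP#2.

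Hypoxia inducible factors are known to raise many glycolysis genes along with genes outside the pathway. Of 18 tested targets outside glycolysis, 0 were called higher and 3 lower in shOSGEP#1 (Ak4, −1.84; Narf, −1.19; Ddit4, −1.12), where 5% and 4.67% of all tested genes were, and 2 higher and 1 lower in shOSGEP#2, where 5.66% and 3.89% were. The 2 higher were Ero1l (1.72) and Vegfa (1.51), and the lower one was Mxi1 (−1.21). Ero1l had the highest mean CPM of the list over the 8 libraries, whereas in shCtr Ddit4 stood higher (169 against 143 CPM). Vegfa had 47.0, 53.4 and 29.4 CPM in shCtr, 47.1, 43.9 and 44.2 in shOSGEP#1, and 118 and 145 in shOSGEP#2 replicates 1 and 3. In the shallow library Vegfa had 453 CPM, Mxi1 0 counts, and Ero1l 125 CPM, within its shCtr range of 118 to 163 CPM. The list medians were −0.29 and −0.02. Among 15 tested regulators of glycolysis genes, 0 were called higher and 2 lower in each comparison with shCtr, against the same shares of all tested genes. Epas1, which encodes the hypoxia inducible factor HIF-2α, was lower in both (−1.77 and −1.94), at 94.8, 92.8 and 60.5 CPM in shCtr, 29.0, 23.8 and 20.5 in shOSGEP#1, and 17.8 and 28.5 in shOSGEP#2 replicates 1 and 3. In the shallow library Epas1 had 68.5 CPM, within the shCtr range, and Mlxip had 0 counts. The others were Mlx (−1.33) in shOSGEP#1 and Mlxip (−1.22) in shOSGEP#2, which encode partner proteins that respond to glucose. Trp53, the regulator with the highest mean CPM over the 8 libraries but below Hif1a in shCtr (183 against 207 CPM) and in shOSGEP#2 (138 against 174 CPM), had log2 fold changes of 0.29 and −0.49 (edgeR adjusted p = 0.239 and 0.0873). Calls that held without each of the 8 libraries in turn were those of Vegfa, Ero1l, Epas1 and Mlx. In edgeR adjusted p, the call was lost for Ddit4 without shCtr replicate 2 (0.0152), for Ak4 without shCtr replicate 2 (0.0103) or shOSGEP#1 replicate 2 (0.0111), and for Mxi1 without shCtr replicates 1 and 2 (0.0132 and 0.0165) or shOSGEP#2 replicate 3 (0.0321). It was lost for Narf without shCtr replicates 1, 2 and 3 (0.0125, 0.0175 and 0.0113) or shOSGEP#1 replicates 2 and 3 (0.0152 and 0.0114), and for Mlxip without shCtr replicates 1, 2 and 3 (0.0283, 0.0300 and 0.0138), shOSGEP#1 replicates 1 and 2 (0.0111 and 0.0118) or shOSGEP#2 replicate 3 (0.0709).

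Markers of the cell line moved as well. The 8 melanocyte and melanoma markers summed to 8879.6, 8065 and 10702 CPM in shCtr, 10458, 13562 and 12386 in shOSGEP#1, and 3717 and 4611 in shOSGEP#2 replicates 1 and 3. By mean CPM, Gpnmb stood highest over the 8 libraries, and Tyrp1 in shCtr (2298 against 2266 CPM) and in shOSGEP#2 (1421 against 1168 CPM). Of these markers 6 were called lower in shOSGEP#2, where 3.89% of all tested genes were. In shOSGEP#1 Gpnmb (1.20) was called higher and Tyr (−2.59) lower, where 5% and 4.67% of all tested genes were. In edgeR adjusted p, Gpnmb lost its call in shOSGEP#2 without shCtr replicate 1 (0.0139) or shOSGEP#2 replicates 1 and 3 (0.0161 and 0.0165), Sox10 without shOSGEP#2 replicate 1 (0.0101) and Mlana without shOSGEP#2 replicate 3 (0.0109). Sox10 had 1089.6 CPM in the shallow library, above its 824 to 890.2 CPM in shCtr, while the other 5 called markers lay below all their shCtr libraries there. The 5 fibroblast markers, led by Pdgfrb, summed to 8.18 to 11.2 CPM in shCtr and shOSGEP#1 and to 26.0 and 62.8 CPM in shOSGEP#2 replicates 1 and 3. Leukocyte markers, led by Lyz2 over the 8 libraries, summed to at most 4.08 CPM. In shOSGEP#2 Cd3e led them with a mean of 0.838 CPM, from replicate 3 alone (1.68 CPM, with 0 in replicate 1). Endothelial markers, led by Pecam1, summed to at most 2.18 CPM. Keratinocyte markers, led by Cdh1, summed to at most 0.957 CPM, with Krt5 at 0. Mitochondrially encoded genes held 2.96% of the counts in shOSGEP#1 replicate 3 and 0.147% to 0.445% in the other deep libraries. The part of these differences in the values of the glycolysis genes was not tested.

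Across the 8 libraries, the genes outside the lists that most resembled the mean log2 CPM of the 10 glycolysis genes were Flad1 (Pearson r = 0.982), Kcnab2 (0.980), Psmd2 (0.975), Asb6 (0.973) and Tnpo3 (0.973), among 9245 genes with a mean of at least 10 CPM. Psmd2 had 605, 607 and 438 CPM in shCtr, 466, 419 and 344 in shOSGEP#1, and 452 and 325 in shOSGEP#2 replicates 1 and 3. Within the list, the correlation of a gene with the mean of the other 9 was 0.992 for Tpi1 and 0.872 to 0.953 for Aldoa, Gapdh, Pgk1, Eno1, Pkm and Ldha. It was 0.599 for Gpi1, −0.04 for Hk2 and −0.20 for Slc2a1. These coefficients describe 8 libraries, which share their groups and depths.

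Codons that begin with A, which are read by the tRNAs that the enzyme complex of Osgep modifies, made up 24.2% (Slc2a1) to 31.5% (Gapdh) of the codons of the 10 genes, with a median of 28.9%, beside 26.9% over 12593 tested genes. Hk2 had 27.6% and Aldoa 26.6%, both near that median. Codons that begin with G had a median of 37.5% in the 10 genes and 31.7% over the tested genes. All but Gpi1 lay above the latter.

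Promoter windows from RefSeq (GRCm38.p6), 250 bases before to 50 after a transcript start, were found for 10 of the 10 genes, 16 windows in all. They were searched on both strands for ACGTG and for GCGTG, letters that occur in sites hypoxia inducible factors are known to bind, and matches on opposite strands can overlap. ACGTG was present in 8 of the 16 windows, from 7 of the genes, and in 19.6% of the 32851 windows of the same length in the table. GCGTG was present in 7 of the 16, from 4 genes, and in 32.4% of all windows. At least 1 of the motifs was present in 12 of the 16, from 8 genes, and in 43.8% of all windows. Windows of a gene can overlap, as for Aldoa and Eno1, and then count the same match more than once. Eno1 had GCGTG and no ACGTG in its windows, and Gpi1 and Tpi1 had neither. The windows of Hk2 (chr6:82774405-82774704, minus strand) and Pgk1 (chrX:106186850-106187149, plus strand) are shown, chosen after the values were seen, because these genes have a single window that holds more than 1 ACGTG. Pkm has 2 in 1 of its 2 windows and Ldha 5 in 1 of its 2. Capitals mark ACGTG or its reverse complement CACGT.
Hk2: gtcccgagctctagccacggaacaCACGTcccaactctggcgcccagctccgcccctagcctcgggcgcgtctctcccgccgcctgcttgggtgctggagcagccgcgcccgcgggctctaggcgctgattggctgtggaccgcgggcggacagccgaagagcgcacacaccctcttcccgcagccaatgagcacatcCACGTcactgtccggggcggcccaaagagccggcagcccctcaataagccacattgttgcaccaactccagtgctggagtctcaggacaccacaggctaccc
Pgk1: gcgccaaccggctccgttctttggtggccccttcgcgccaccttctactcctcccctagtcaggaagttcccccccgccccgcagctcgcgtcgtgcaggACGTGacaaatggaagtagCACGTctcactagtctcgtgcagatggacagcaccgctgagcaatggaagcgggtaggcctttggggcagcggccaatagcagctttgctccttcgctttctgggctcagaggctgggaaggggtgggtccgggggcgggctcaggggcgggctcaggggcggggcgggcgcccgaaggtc
A match is a run of letters, and binding was not measured in these data.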

How the data were processed

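RNA recovered with FLAG-RIG-I was counted per gene in 9 libraries of B16F10 cells. Reads were trimmed with Trim Galore, aligned by STAR to GRCm39 and assigned to genes by Salmon, and the authors deposited raw counts of 22396 genes as whole numbers. How the genes were selected and the estimates made whole is not given in the sources used here. Groups and replicate numbers came from the sample labels.

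CPM and shares used library totals. Genes were tested on the deposited counts with edgeR 4.0.16 in R 4.3.3 (TMM normalization, filterByExpr, quasi-likelihood test, Benjamini-Hochberg adjustment over all tested genes, threshold 0.01 as in the methods), in 1 fit of 8 libraries without covariates. shOSGEP#2 replicate 2 was left out of it for its depth. The paper's methods used DESeq2 with that threshold, and DESeq2 is among the alternatives below. Standard errors were derived from each log2 fold change and its F statistic (their quotient after a square root of F). The edgeR p-values weigh a difference of group means against the spread between libraries, estimated over the groups together with information shared across genes. Groups of 3 and 2 leave a coarse estimate of that spread. The tests were also tested on simulated data. Wilson intervals of 95% and the floor of 3 counts cover counting error only, since reads are not independent molecules.

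The members and lists were chosen with earlier results of these data known. The genes named are the 10 members, the gene of highest mean CPM over the 8 libraries in each other list, up to 6 genes a list called against shCtr, the 5 genes most like the members, Osgep and Ddx58. Marker genes and any other gene, such as Hkdc1, Eno2, Aldoc, Hif1a and Dld, were named after their values were seen. Names, lengths and codons came from GENCODE for GRCm38, an earlier build than that of the counts, matched by identifier (22237 of 22396 named), so no coordinates are given other than those of RefSeq promoter windows. The second Aldoa identifier of the table, with at most 33 counts, was not used. Alternatives were DESeq2 1.42.0, RLE, library totals, other filters, a threshold of 0.05, only the groups compared, the replicate number as a block, all 9 libraries, limma 3.58.1 voom weights, and each library left out. Other values came from Python 3.11.15, pandas 2.3.3, numpy 2.4.6 and scipy 1.17.1, and plots from matplotlib 3.10.9.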

Additional observations from a re-analysis of the deposited data

Results flagged for a closer look

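Hk2 differed between the shRNAs, which target the same gene. Its log2 fold change was 1.65 for shOSGEP#2 against shOSGEP#1 in the edgeR fit of 8 libraries (adjusted p = 0.000253), with 60.6 to 85.5 CPM in the 3 shOSGEP#1 libraries and 221 and 262 CPM in the 2 deep shOSGEP#2 libraries. Of all 12744 tested genes, 1375 (10.8%) were called between the shRNAs in either direction. Among the 21 tested other glycolysis genes, 3 were called higher and 2 lower in shOSGEP#2 than in shOSGEP#1. Among the 18 tested hypoxia targets outside glycolysis, 4 were called higher and 2 lower. The cause of the Hk2 difference was not tested.

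In shOSGEP#2 replicate 2, the shallow library left out of the comparisons, the hemoglobin genes Hba-a1 and Hbb-bs reached 807 and 43.9 CPM. Hba-a1 had at most 0.383 CPM in shCtr and at most 13.4 CPM in the other libraries. Hbb-bs had at most 0.0718 CPM in shCtr and at most 2.61 CPM in the other libraries. The source of these counts was not tested.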

How the results depend on the processing

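Of 180 log2 fold changes of the 10 genes under alternatives in each comparison, 156 kept direction and side of the threshold for shOSGEP#1 (13 no longer passed, 9 newly passed, 2 changed sign), 144 for shOSGEP#2 (0, 34 and 2) and 156 between the shRNAs (2, 3 and 19). Depth limits shOSGEP#2 replicate 2, and with 3 or 2 libraries a group 1 library carries weight. Where 1 library was left, it was assumed to vary like the other groups. Except where stated, the cause of a change was not tested.

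For shOSGEP#1, 1232 genes and 2 of the 10 were called, and DESeq2 called 2419 (15.4% of 15691 genes) and 4, an adjusted p under 0.05 gave 2797 and 5, all 9 libraries 0 and 0, and limma voom with sample quality weights on all 9 libraries, which changes tool, weights and libraries together, 3317 (26.9% of 12337 genes) and 5. Leaving out 1 library gave 318 to 1458 genes and 0 to 2 of the 10. For shOSGEP#2, 1217 and 0 were called. DESeq2 called 2405 and 7, an adjusted p under 0.05 gave 2674 and 7, all 9 libraries 0 and 0, and limma voom with weights on all 9 libraries 1012 and 6. Of the 10 genes, 1 was called with RLE (9.6% of all genes), 1 with library totals (10% of all), 4 without a filter (10.2%) and 2 with at least 10 counts in every library (12.2%). Library totals called 375 of 1276 genes lower, against 496 of 1217. Leaving out 1 library gave 518 to 1471 genes and 0 to 3 of the 10. Between the shRNAs, 1375 and 1 were called. DESeq2 called 2592 and 2, an adjusted p under 0.05 gave 2952 and 2, all 9 libraries 0 and 0, a fit of only these groups 737 genes, and no filter 2 of the 10 and 1803 of 15710 genes. Leaving out 1 library gave 743 to 1504 genes and 1 of the 10.

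Pairing by replicate number was weak: 7 pairs of libraries that share a number had a mean correlation of 0.0809 in their deviations from group means, beside −0.0398 for other pairs. Deviations within a group sum to 0, so the other pairs are no independent baseline. Those of the 2 deep shOSGEP#2 libraries are exact opposites. Of the 7 pairs 3 were over 0.1, and 6 of 8 libraries correlated best with a library of their own number. The labels share that number between groups and do not say that it marks the same experiment. The paper describes 3 biological replicates from independent experiments. With the replicate block, 5, 7 and 2 of the 10 genes were called in the 3 comparisons, in place of 2, 0 and 1, and 10.8%, 9.71% and 10.9% of all 12744 genes. With the replicate block and all 9 libraries, chosen after seeing the data, 0 genes and 0 of the 10 were called, against 407, 787 and 842 genes (3.3%, 6.38% and 6.83%) and 1, 7 and 2 of the 10 at an unadjusted p under 0.05 by edgeR. Under this replicate block Slc2a1 turned to −0.64 in shOSGEP#2, and between the shRNAs Aldoa turned to −0.52 and Gapdh to −0.28. The replicate block on 8 libraries turned Slc2a1 to 0.0271 and Tpi1 to 0.0860 between the shRNAs.

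The other sign changes follow. In shOSGEP#1, Slc2a1 was −0.0222 with limma voom on all 9 libraries, and Gpi1 ran from −0.29 to 0.0188 with 1 library left out. In shOSGEP#2, Slc2a1 was −0.34 with all 9 libraries. Between the shRNAs, all 9 libraries gave −0.40 for Aldoa and −0.20 for Gapdh, library totals 0.0243 for Slc2a1 and 0.0487 for Tpi1, and limma voom on all 9 libraries 0.0454 for Slc2a1 and −0.0707 for Aldoa. With 1 library left out, Slc2a1 ran from −0.23 to 0.14, Aldoa from −0.20 to 0.20, Tpi1 from −0.36 to 0.25, Gapdh from −0.0226 to 0.42 and Ldha from −0.64 to 0.00806.

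The planned summed share outside the 10 top genes of each library and outside mitochondrial genes allowed more than 1 reading, so 3 are given for shCtr, shOSGEP#1 and shOSGEP#2. With these genes out of the total only, it was 2.18%, 1.45% and 1.45%. With members among them out of the sum too, computed first, it was 0.746%, 0.763% and 0.737%, which compares different genes between libraries and shows no lower mean in shOSGEP#1. With the same 10 genes out of sum and total in all libraries, a reading chosen after seeing the data, it was 1.12%, 0.697% and 0.651%.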
